A study of Mus musculus with 18 samples.

Results

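The hearts described here are the 10 that had undergone transverse aortic constriction (TAC), an operation that narrows the aorta and loads the left ventricle with pressure, out of 18 libraries in the series. They were chosen by label alone: 5 hearts from wild-type mice and 5 from mice lacking Kcp, all on the C57 background and all from TAC surgery. The product of Kcp, kielin/chordin-like protein, is secreted and modulates BMP signalling. The 8 sham-operated hearts, 4 of each genotype, took no part in any test. No difference in level between surgeries or genotypes was tested. Whether genes followed the score described below differently in the 2 genotypes was tested. The sources used here do not give age, the time from surgery to collection, the part of the heart taken or the way the knockout was made, and no label says whether the libraries came from separate mice. The p-values therefore measure only the spread between these libraries, which may be partly technical. The values used to order the hearts were those of Nppa and Nppb, and each library was scored by the mean of its log2(FPKM + 1) for these genes, where FPKM is a read level scaled by transcript length and library total.

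Nppa and Nppb encode the precursors of atrial and B-type natriuretic peptide, hormones that promote sodium excretion and widen blood vessels. Stretch and pressure load switch both genes on in the ventricle, together with other genes of the fetal heart, while fibroblasts lay down matrix and the genes of fatty acid use and calcium cycling are often reduced. Natriuretic gene levels are widely read as a gauge of ventricular stress. The question asked here is which other genes varied with them between hearts that had the same operation.

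Nppa lies on chromosome 4 at 148000722 to 148002074 and Nppb beside it at 147985786 to 147987205, in RefSeq coordinates of GRCm38.p6 (the mm10 build), with 13517 bases from the end of Nppb to the start of Nppa. The 250 bases before the start site that the RefSeq promoter table lists for each are shown because these 2 genes define the score. The Nppa window is chr4:148000472-148000721 and the Nppb window is chr4:147985650-147985899, both on the forward strand; the annotated Nppb gene begins inside its window. Capitals mark matches on either strand to the letters GATAA (reverse TTATC), which GATA factors such as GATA4 recognise, or CATTCC (reverse GGAATG), the M-CAT element that TEAD factors recognise.
Nppa: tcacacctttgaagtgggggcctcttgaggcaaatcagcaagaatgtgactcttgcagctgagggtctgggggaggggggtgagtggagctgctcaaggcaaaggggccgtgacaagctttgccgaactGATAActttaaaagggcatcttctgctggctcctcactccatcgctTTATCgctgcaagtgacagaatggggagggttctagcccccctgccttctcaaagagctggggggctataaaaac
Nppb: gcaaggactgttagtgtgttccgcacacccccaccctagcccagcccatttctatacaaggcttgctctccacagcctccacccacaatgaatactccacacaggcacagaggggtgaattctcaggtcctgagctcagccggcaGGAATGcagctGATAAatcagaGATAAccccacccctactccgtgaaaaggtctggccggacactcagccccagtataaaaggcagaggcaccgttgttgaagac
The Nppa window held GATAA letters 121 bases before the listed start on the forward strand and 75 bases before it on the reverse strand. The Nppb window held them at 94 and 83 bases on the forward strand, with an M-CAT match on the reverse strand at 105 bases. All these Nppb matches lie before the listed start but inside the annotated gene, which begins at 147985786. The letters TGACTCA (reverse TGAGTCA) of an AP-1 site were in neither window, which says only that those letters are absent there. Of 32841 promoter windows of this length, 22.6% held the GATA letters, 12.6% the M-CAT letters and 4.46% the AP-1 letters. A match is a description of the sequence and not a measured binding site.

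The libraries ranged from 11027 to 11376 genes at 1 FPKM or more, their FPKM summed to 390453 to 424875, and the 10 most abundant genes held 15.2% to 16.9% of the sum. Sequencing depth is unknown, so no counting interval is given. The level given for Kcp was not 0 in the knockout libraries: it was at 0.985, 1.04, 1.48, 1.07 and 1.04 FPKM in wild-type TAC replicates 1 to 5 and at 0.952, 0.935, 0.791, 0.637 and 0.494 in knockout TAC replicates 1 to 5. The Kcp locus overlaps Atp6v1fnb and Gm26627, and the counting is not stated to use strand. Reads of these partners cannot be told apart from those of Kcp, and whether the knockout still makes Kcp RNA was not tested. The library name of knockout TAC replicate 4 joins 2 library names. Wild-type TAC replicate 5 stood apart from its own group in 4 genes that had been picked because they split the libraries into sets. Ndufb4c was at 7.02 FPKM in that library, at 35.9 to 38.8 in wild-type TAC replicates 1 to 4 and at 4.47 to 8.08 in knockout TAC. In the same order, Rps27rt was at 6.21, 20.2 to 34.8 and 4.67 to 8.51 FPKM, Rps10 at 30.1, 50.4 to 59.0 and 25.7 to 31.6, and Nnt at 134, 92.1 to 116 and 176 to 196. For the first 3 genes this library labelled wild type had levels within or near the knockout range. Results are also given over 8 libraries, without the 2 whose scores, relative to their genotype, lay farthest from the median. Those 2 were this library and the low-scoring knockout library described below.

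The ventricular markers summed to 11600 to 14000 FPKM in wild-type TAC and 10800 to 12600 in knockout TAC. Several of the 8 atrial markers that define the atrium were at or near 0: Myl7 (atrial myosin light chain) was at most 0.4 FPKM, Sln (sarcolipin) at most 0.192, Bmp10 at most 0.158 and Mybphl at most 0.155. The summed atrial list was 10.7 to 17.9 FPKM in wild type and 5.0 to 13.6 in knockout, most of it from Kcnj3, at 3.47 to 16.7. In a piece of heart, fewer cells of a type and less RNA per cell cannot be told apart.

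In each genotype 1 heart had lower levels of both natriuretic genes than the other 4, though not by a wide gap for each gene. Nppa was at 2669, 1560, 1901, 1510 and 645.5 FPKM in wild-type TAC replicates 1 to 5 (mean 1657 ± 731, SD, n = 5). In knockout TAC replicates 1 to 5 it was at 7472, 2191, 4104, 3931 and 6151 (4770 ± 2060, n = 5). Nppb was at 652.2, 1152, 999.8, 756.7 and 445.7 FPKM in wild type (801.3 ± 280, n = 5) and at 1312, 594.1, 1163, 1105 and 1446 in knockout (1124 ± 325, n = 5). Within wild type, Nppa spanned 4.13-fold and Nppb 2.58-fold; within knockout they spanned 3.41-fold and 2.43-fold. Wild-type replicate 5 and knockout replicate 2 had the lowest value of both genes in their genotype. In wild type the gap to the next heart was wide for Nppa (645.5 against 1510 FPKM) and narrower for Nppb (445.7 against 652.2). The genes did not put the other hearts in one order: wild-type replicate 1 had the highest Nppa of its group and the fourth highest Nppb.

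**Figure D1:**
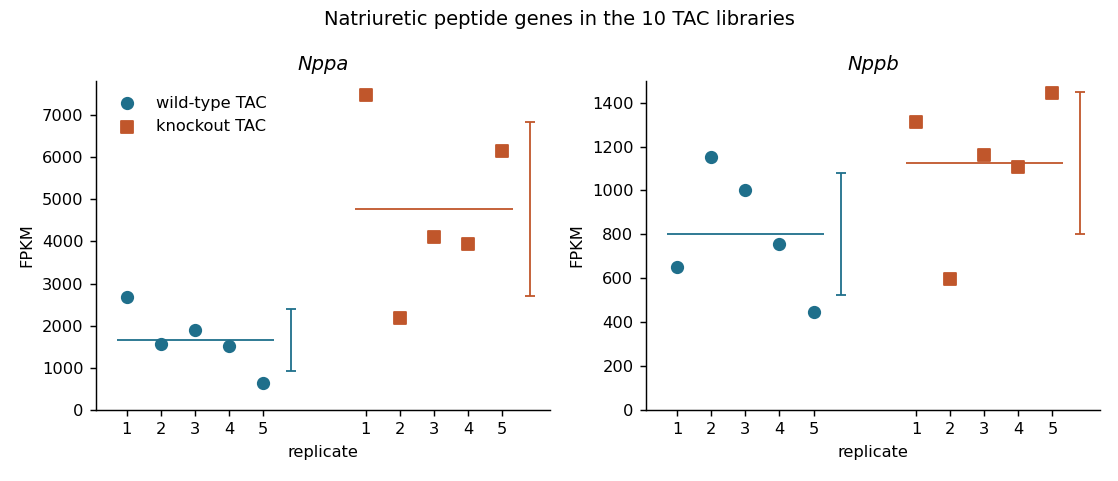
FPKM of Nppa (left) and Nppb (right) in each of the 10 TAC libraries, by replicate, with the mean of each genotype as a line and ± 1 SD (n = 5) as a bar beside it. Wild-type replicate 5 (645.5 and 445.7 FPKM) and knockout replicate 2 (2191 and 594.1 FPKM) are the lowest of their groups in both panels.

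The score was 10.37, 10.39, 10.43, 10.06 and 9.07 in wild-type TAC replicates 1 to 5 and 11.61, 10.16, 11.09, 11.03 and 11.54 in knockout TAC replicates 1 to 5. After subtraction of the genotype mean these became 0.30, 0.33, 0.37, 0.00 and -0.99 in wild type and 0.53, -0.93, 0.01, -0.06 and 0.46 in knockout. The lowest score lay 0.99 below the next in wild type and 0.87 below the next in knockout, while the other 8 centred scores lay between -0.06 and 0.53. The hearts were thus not evenly graded: 2 stood low, and any slope over all 10 mostly compares them with the other 8. Those 8 were not evenly spread either. Wild-type replicate 4 and knockout replicates 3 and 4 lay at -0.06 to 0.01 and the rest at 0.30 to 0.53, so slopes over the 8 rest largely on that step. No pooled correlation coefficient is therefore given. Each gene is described by its slope, the change in log2(FPKM + 1) per log2 unit of score with genotype in the model, first over the 10 libraries and then over the 8. For scale, sham hearts scored 6.51 to 7.59 (wild type) and 5.99 to 6.49 (knockout), below every TAC heart.

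Among all genes, the first principal axis after centring held 24.8% of the variance and the second 18.9%. On the first axis knockout replicate 2 was at -20.4 and wild-type replicate 5 at -8.9, with knockout replicate 1 at the other end, at 12.6; the remaining 7 lay between -1.0 and 6.7. The low-scoring heart of each genotype was therefore also the one farthest toward the same end of the main axis of variation. The second axis set wild-type replicate 2 (14.3) and knockout replicate 5 (12.2) against knockout replicate 1 (-9.1) and wild-type replicate 1 (-8.4), and both low-scoring hearts lay near its middle, at -1.6 and 0.4.

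Over the 10 libraries, 10 of 11600 tested genes passed an adjusted p of 0.05 (limma, Benjamini-Hochberg): 5 rose with the score, which is 0.0431% of those tested, and 5 fell, also 0.0431%. Those that rose encode secreted or cell surface proteins: Serpina3n, Mfap5, Pi16, Serpine2 and Ackr4. Those that fell were Mylk4, Hopx, Arhgef15, Dglucy and Mmp15. All 10 had the same sign of slope in both genotypes and with each library left out. They were picked by their slopes over these same libraries, so a constant sign was likely in advance and is no independent check. At an unadjusted p under 0.05 there were 626 higher genes (5.40%) and 725 lower genes (6.25%). Positive slopes made up 42.4% of all tested genes, and the median slope was -0.018. Over the 8 libraries both turned: 53.6% of slopes were positive and the median was 0.018. The lean to negative slopes over the 10 libraries also depended on how the libraries were scaled. With median-ratio scaling, an alternative listed below, the median slope lay 0.019 higher than in the main fit, about the size of the main median slope itself. At an unadjusted p under 0.05 the higher genes then outnumbered the lower ones, the reverse of the main fit.

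The number of genes passing varied with which library was left out. Without wild-type replicate 5, 0 genes passed as higher and 1 as lower, and without knockout replicate 2, 0 passed in either direction. Of the 10 genes none passed in those fits: their adjusted p was 0.152 to 0.257 without wild-type replicate 5 and 0.243 to 0.364 without knockout replicate 2 (limma, Benjamini-Hochberg). The number passing was also 0 without wild-type replicate 3, and 1 higher and 0 lower without wild-type replicate 2. It was 2 higher and 1 lower without wild-type replicate 1 or without knockout replicate 3, 4 and 1 without wild-type replicate 4, and 5 and 0 without knockout replicate 1. It was 16 and 7 without knockout replicate 4 and 44 and 10 without knockout replicate 5. In the 8 libraries without either low-scoring heart, 0 of 11490 genes passed in limma with Benjamini-Hochberg, and at an unadjusted p under 0.05 there were 226 higher (1.97%) and 121 lower (1.05%).

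Serpina3n encodes a secreted serine protease inhibitor of the acute phase and belongs to a cluster of closely related genes, so its reads may be shared with its neighbours. It lies on chromosome 12 at 104406646 to 104414334. Its level was 17.4, 18.2, 21.4, 16.5 and 5.95 FPKM in wild-type TAC replicates 1 to 5 and 59.6, 18.3, 54.8, 56.5 and 53.2 in knockout TAC. The low-scoring heart was lowest in each genotype, with the other 4 close together. Its slope was 1.12 ± 0.13 (SE), a 2.17-fold change on the FPKM + 1 scale per doubling of the natriuretic level, with adjusted p = 0.0171 (limma, Benjamini-Hochberg). Over the 8 libraries the slope of Serpina3n was 0.19, with an unadjusted p of 0.323, so its difference lay mostly between the low-scoring hearts and the rest.

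Mfap5, on chromosome 6 at 122513584 to 122529290, encodes a glycoprotein of elastic microfibrils. Its level was 43.4, 32.0, 44.2, 35.5 and 16.8 FPKM in wild type and 82.3, 31.5, 65.8, 59.4 and 62.7 in knockout, with the low-scoring heart lowest in both. Its slope was 0.86 ± 0.10 (adjusted p = 0.0171 from limma with Benjamini-Hochberg) and 0.45 over the 8 libraries. Serpine2, on chromosome 1 at 79794317 to 79858665, encodes an inhibitor of thrombin and other serine proteases that is held in the matrix. It was at 19.95, 19.21, 18.64, 17.95 and 10.07 FPKM in wild type and 28.5, 14.1, 23.4, 20.6 and 19.2 in knockout, again lowest in the low-scoring hearts. The slope of Serpine2 was 0.58 ± 0.09, with adjusted p = 0.04996 by limma and Benjamini-Hochberg, and 0.26 over the 8 libraries.

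Of the 10 genes that passed, Pi16 and Ackr4 had the largest slopes over the 8 libraries. Pi16, on chromosome 17 at 29318796 to 29328903, encodes a membrane-anchored peptidase inhibitor that marks resident fibroblasts. It was at 65.4, 63.2, 62.1, 45.8 and 33.4 FPKM in wild type and 109.8, 43.0, 74.6, 62.8 and 70.6 in knockout, with a slope of 0.71 ± 0.10 (limma with Benjamini-Hochberg, adjusted p = 0.0290) and 0.92 over the 8 libraries. Ackr4, on chromosome 9 at 104097682 to 104126643, encodes an atypical chemokine receptor that takes up chemokines without signalling. It was at 5.78, 5.74, 5.75, 3.76 and 3.40 FPKM in wild type and 13.1, 6.94, 9.81, 8.63 and 13.5 in knockout. Among the upper 4 hearts of wild type, replicate 4 had both the lowest score and the lowest Ackr4, with the other 3 level, and in knockout replicates 4, 3, 5 and 1 the higher scores went with the higher levels apart from the top pair. Its slope was 0.54 ± 0.08 over 10 libraries (limma with Benjamini-Hochberg, adjusted p = 0.04996) and 1.06 over 8, where the unadjusted p was 0.000107 and the adjusted p 0.616. Whether slopes over 10 and over 8 libraries differ was not tested. The Pi16 and Ackr4 loci overlap Gm46603 and Acad11, and the counting is not stated to use strand, so reads of the partners cannot be told apart.

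Of the genes that fell, Mylk4 and Hopx belong to the cardiomyocyte. Mylk4, on chromosome 13 at 32700824 to 32806773, encodes a myosin light chain kinase. It was at 41.1, 31.2, 33.2, 39.3 and 61.6 FPKM in wild type and 22.8, 46.5, 27.0, 29.1 and 28.1 in knockout, highest in the low-scoring heart of each. Its slope was -0.61 ± 0.08 (limma with Benjamini-Hochberg, adjusted p = 0.0204) and -0.38 over the 8 libraries. Hopx, on chromosome 5 at 77086986 to 77115123, encodes an atypical homeodomain protein that restrains serum response factor. Hopx was at 106.6, 94.2, 90.3, 113.3 and 155.6 FPKM in wild type and 80.3, 129.2, 90.1, 75.4 and 81.8 in knockout, with a slope of -0.49 ± 0.07 and adjusted p = 0.0408 (limma, Benjamini-Hochberg), and -0.19 over the 8 libraries. The Mylk4 locus overlaps Wrnip1 and the Hopx locus overlaps Hopxos, with the same limit on strand.

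Dglucy, on chromosome 12 at 100779057 to 100872610, encodes D-glutamate cyclase, a mitochondrial enzyme. It was at 11.1, 10.8, 10.2, 11.6 and 14.9 FPKM in wild type and 6.98, 11.0, 8.64, 8.396 and 7.97 in knockout. In wild type its order was the exact reverse of the score, and in knockout 1 neighbouring pair was out of that order. Its slope was -0.35 ± 0.05 over 10 libraries (limma with Benjamini-Hochberg, adjusted p = 0.0359) and -0.34 over 8. The locus overlaps the gene model Gm8482.

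Arhgef15, on chromosome 11 at 68928900 to 68956934, encodes a signalling protein of blood vessel endothelium. It was at 14.80, 13.02, 15.03, 15.78 and 19.5 FPKM in wild type and 10.3, 17.2, 12.6, 12.5 and 11.8 in knockout, with a slope of -0.37 ± 0.06 over 10 libraries and -0.36 over 8 (adjusted p = 0.0408 over 10, limma with Benjamini-Hochberg). Its locus overlaps the gene model Gm51902. Mmp15, on chromosome 8 at 95352296 to 95374293, encodes a membrane-anchored matrix metalloproteinase. It was at 20.4, 20.8, 21.2, 21.9 and 27.4 FPKM in wild type and 18.1, 25.8, 19.4, 18.6 and 16.6 in knockout, with a slope of -0.33 ± 0.05 (limma with Benjamini-Hochberg, adjusted p = 0.0408) and -0.21 over the 8 libraries. For Arhgef15 and Mmp15 alike, the low-scoring heart had the highest level in its genotype.

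**Figure D2:**
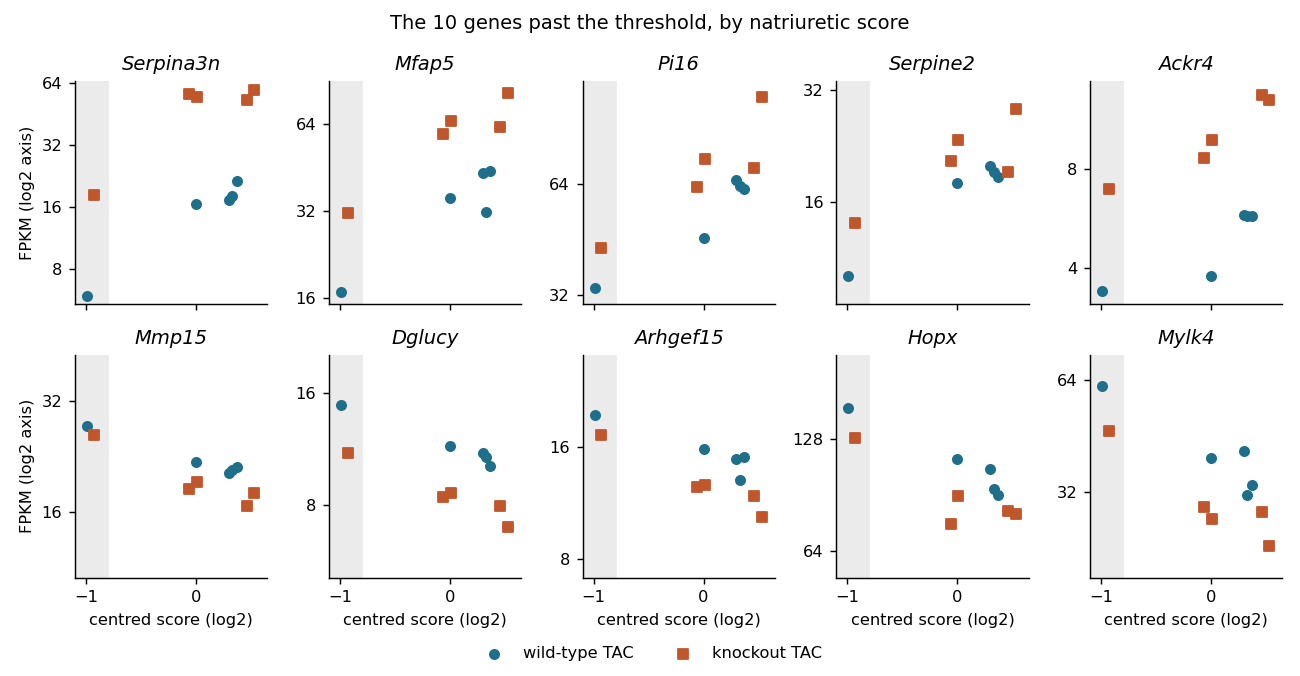
FPKM on a log2 axis of the 10 genes past the threshold against the centred score in log2 units, with wild-type TAC as circles and knockout TAC as squares; grey bands mark the low-scoring heart of each genotype. In all 10 panels those hearts hold the lowest (upper row) or highest (lower row) level of their genotype, and within the other 8 hearts Serpina3n is nearly flat (slope 0.19) while Ackr4 still climbs (slope 1.06).

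No gene had a slope that passed as different between the genotypes: 0 of 11600 in limma with Benjamini-Hochberg, with 513 (4.42%) at an unadjusted p under 0.05. Without wild-type replicate 4, 5 genes passed.

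Gene lists describe the wider pattern. Of 37 lists with at least 3 tested members, 4 had their lowest mean level in the low-scoring heart of both genotypes: fetal and stretch genes, extracellular matrix, activated fibroblast and matricellular genes, and resident fibroblast genes. For the resident fibroblast genes the knockout hearts lay close, with a centred mean of -0.086 in replicate 2 and -0.069 in replicate 5. A further 7 had their highest level in both: ion channels and gap junctions, fatty acid oxidation, oxidative phosphorylation, tricarboxylic acid cycle, metabolic regulators, endothelial markers, and smooth muscle and pericyte markers. Some of these margins were small too. The centred endothelial mean was 0.096 in knockout replicate 2 and 0.093 in replicate 3. For oxidative phosphorylation it was 0.055 in wild-type replicate 5 and 0.047 in replicate 1. Others were wider, such as ion channels in knockout, at 0.201 in replicate 2 and -0.033 in replicate 4. How many of all tested genes were lowest or highest in both hearts was not counted. A few genes stand in more than 1 list, and the lists were picked with earlier results of these data known and carry no test of their own. Among all tested genes over the 10 libraries, 57.6% had a negative slope. At an unadjusted p under 0.05 (limma), 5.40% were higher and 6.25% lower, and the list counts below stand beside these shares. The shares depend on the scaling of the libraries, as stated above, and list slopes are given for the main scaling only.

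**Figure D3:**
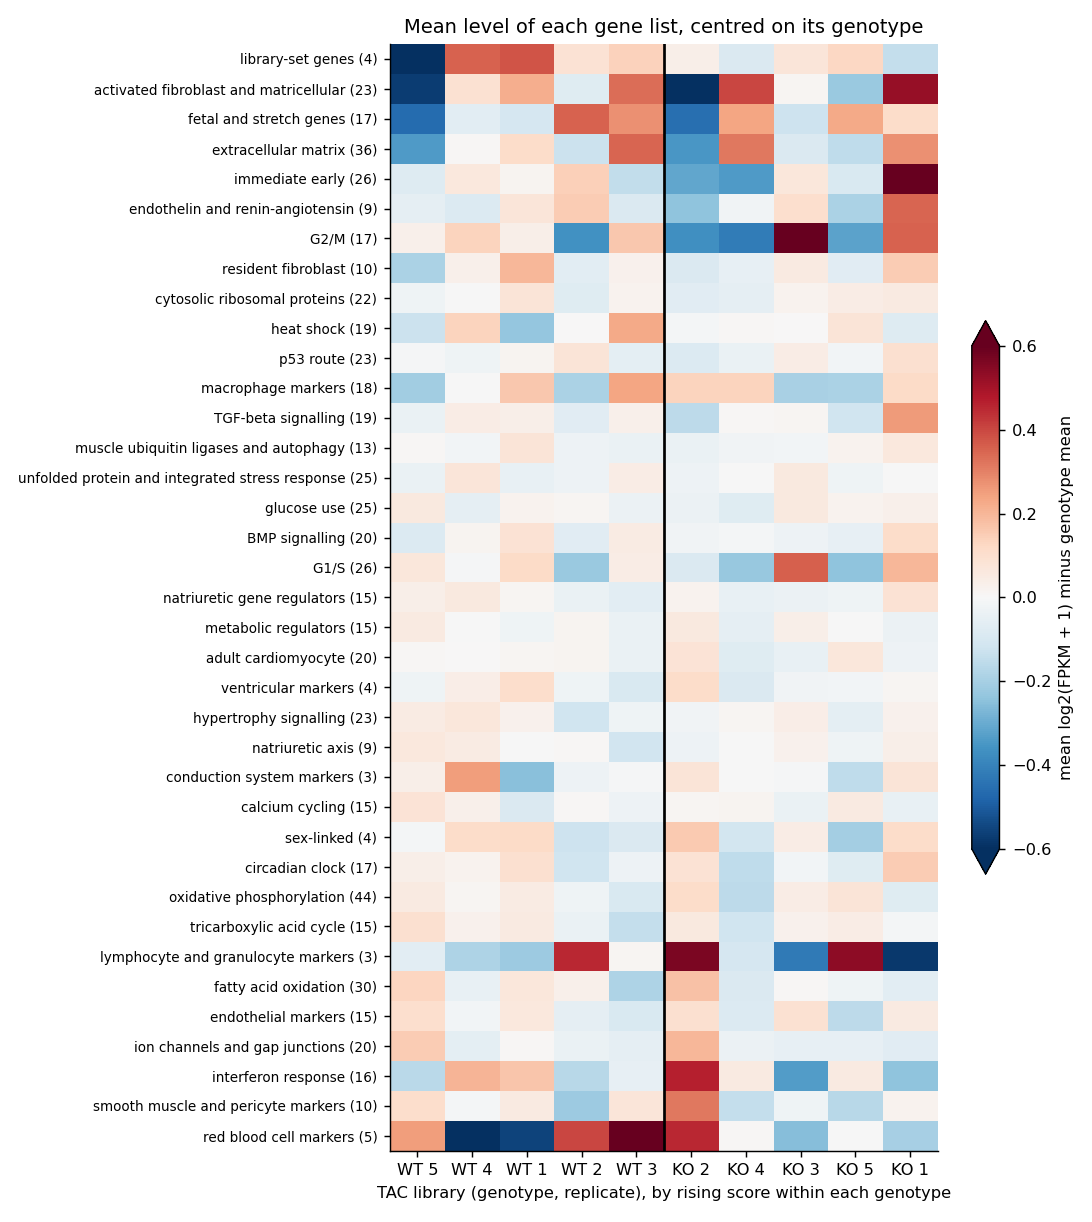
Mean log2(FPKM + 1) of the tested members of each of 37 gene lists in each TAC library, minus the mean of its genotype (colour, capped at the ends of the scale), with libraries in order of rising score within wild type (left of the line) and knockout (right) and lists in order of their median slope; the number of tested members follows each name. The leftmost column of each genotype is the low-scoring heart, where activated fibroblast, matrix and fetal lists are low and the fatty acid oxidation, endothelial and smooth muscle lists are high.

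Fetal and stretch genes were mostly higher at higher scores, over 10 libraries and over 8. Of 18 listed genes 17 were tested, 16 had a positive slope and 9 had an unadjusted p under 0.05, all higher, while 0 passed the adjusted threshold. Their median slope was 0.40, against -0.018 for all tested genes. Over the 8 libraries it was 0.37, and 14 of 17 were positive, against 53.6% of all tested genes. Only 1 of the 17 was higher there at an unadjusted p under 0.05 (limma), and 0 were lower. Myh7, the fetal beta myosin heavy chain, was at 471.9, 346.1, 299.9, 412.0 and 188.8 FPKM in wild type and 942.0, 188.4, 400.2, 682.6 and 524.6 in knockout, lowest in both low-scoring hearts (slope 1.01 ± 0.22). By limma with Benjamini-Hochberg its adjusted p was 0.117, and in the 8 libraries its slope was 0.45. Ankrd1, a titin-bound ankyrin repeat protein induced by stretch, was at 2040, 1906, 1963, 1721 and 797.8 FPKM in wild type and 3124, 2242, 2198, 2821 and 4024 in knockout (slope 0.71 ± 0.13, 0.80 over the 8 libraries). The low-scoring wild-type heart stood far below its group for Ankrd1, whereas the low-scoring knockout heart was level with knockout replicate 3. An exact permutation of the score within genotype, 2-sided, gave p = 0.00535 for Ankrd1 over 10 libraries and 0.0972 over 8.

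The fetal list was not uniform. Acta1, skeletal alpha actin, was at 3763, 6387, 6425, 2325 and 1779 FPKM in wild type and 2431, 3417, 1961, 4114 and 5566 in knockout. Its slope was 1.22 in wild type and 0.03 in knockout (0.62 ± 0.33 together, 1.22 over the 8 libraries), and knockout replicate 1, with the highest score, had the second lowest Acta1 of its group. Xirp2, a Xin repeat protein of the intercalated disc, was at 113.1, 140.6, 154.7, 103.4 and 73.7 FPKM in wild type and 186.1, 115.3, 113.9, 232.8 and 188.7 in knockout (slope 0.56 ± 0.16, 0.50 over the 8 libraries). Synpo2l, a Z-disc protein, was at 65.8, 79.8, 79.2, 73.0 and 50.1 FPKM in wild type and 163.0, 76.8, 122.2, 176.5 and 172.9 in knockout, lowest in both low-scoring hearts (slope 0.60 ± 0.12 with an adjusted p of 0.101 by limma and Benjamini-Hochberg, and 0.26 over the 8 libraries).

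Genes of the natriuretic pathway itself did not follow the score as a group. Of 9 tested members beside Nppa and Nppb, 3 had a positive and 6 a negative slope, 0 had an unadjusted p under 0.05, and the median slope was -0.043 over 10 libraries and -0.052 over 8. Corin, the protease that cuts the Nppa precursor, had a slope of -0.06 ± 0.08 over 10 libraries and -0.20 over 8. Furin, a protease that cuts the Nppb precursor, had a slope of -0.04 ± 0.10, -0.27 in wild type and 0.17 in knockout, and -0.26 over the 8 libraries. Npr1, the guanylyl cyclase receptor of both peptides, was at 6.15 to 7.86 FPKM in wild type and 5.79 to 7.39 in knockout (slope -0.11 ± 0.07, and 0.00326 over the 8 libraries). Npr3, the clearance receptor, was at 2.02, 1.83, 1.80, 1.83 and 2.50 FPKM in wild type and 3.84, 1.84, 3.08, 4.38 and 3.72 in knockout, so that the low-scoring heart was the highest in wild type and the lowest in knockout. The slopes of Npr3 were -0.21 in wild type, 0.51 in knockout and 0.0162 over the 8 libraries, and the genotype difference was not past the adjusted threshold in limma.

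Among 15 regulators of the natriuretic genes the median slope was -0.024 (0.035 over the 8 libraries), with 4 higher and 1 lower at an unadjusted p under 0.05. Gata4, the cardiac GATA factor, was at 32.9, 32.2, 34.0, 30.3 and 28.9 FPKM in wild type and 38.8, 30.9, 33.4, 34.8 and 34.3 in knockout. The range was narrow, the low-scoring heart was lowest in each genotype, and the slope was 0.16 ± 0.05 over 10 libraries and 0.24 over 8. The exact permutation p for Gata4, 2-sided, was 0.00167 over 10 and 0.0538 over 8. Tbx20, a cardiac T-box factor, was at 12.6, 12.5, 12.4, 13.1 and 9.53 FPKM in wild type and 16.6, 10.8, 12.5, 13.1 and 14.7 in knockout (slope 0.31 ± 0.06 with an adjusted p of 0.0977 by limma and Benjamini-Hochberg, and 0.35 over the 8 libraries).

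Some calcium cycling and ion channel genes had negative slopes. Atp2a2, which pumps calcium back into the sarcoplasmic reticulum, was at 2113, 2187, 2126, 2322 and 2831 FPKM in wild type and 1725, 2242, 2013, 1930 and 1914 in knockout, highest in both low-scoring hearts. Its slope was -0.26 ± 0.05 over 10 libraries and -0.26 over 8. The exact permutation p for Atp2a2, 2-sided, was 0.000764 over 10 libraries and 0.0191 over 8, and the limma p adjusted over all genes was 0.0864. Each exact p was the smallest among the 28 genes permuted, described below, and is not adjusted for that choice. Of 15 tested calcium cycling genes 10 had a negative slope, against 57.6% of all tested genes, with 3 lower and 0 higher at an unadjusted p under 0.05 and a median of -0.049 (-0.069 over the 8 libraries). One of them was Ryr2, the calcium release channel, with a slope of -0.17 ± 0.05 (-0.23 over the 8 libraries), while Pln, the inhibitor of the pump, had -0.11 ± 0.07 (-0.0689 over the 8). Of 20 ion channel and gap junction genes, 16 had a negative slope and 8 were lower at an unadjusted p under 0.05, with a median of -0.14 over 10 libraries; over the 8 the list turned to 11 positive and 8 negative slopes, with a median of 0.044. Kcnip2, a subunit of the transient outward potassium current, was at 76.0, 63.4, 53.6, 69.3 and 90.5 FPKM in wild type and 48.6, 74.4, 50.6, 57.7 and 55.9 in knockout (slope -0.37 ± 0.08, -0.24 over the 8 libraries). Abcc9, the regulatory subunit of a potassium channel gated by ATP, had a slope of -0.30 ± 0.06 (-0.23 over the 8).

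Adult cardiomyocyte genes turned with the choice of libraries. Of 20 tested genes 13 had a negative slope over 10 libraries, with 1 higher and 3 lower at an unadjusted p under 0.05 and a median of -0.038. Over the 8 libraries 16 were positive and 4 negative, with a median of 0.11. Myh6, the adult alpha myosin heavy chain, was at 4212, 4847, 4592, 4800 and 5215 FPKM in wild type and 4051, 4271, 3997, 4065 and 3801 in knockout (slope -0.12 ± 0.05, with an exact 2-sided permutation p of 0.0272, and -0.0963 over the 8 libraries). The range of Myh6 was small beside that of Myh7.

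Exact permutations of the score within each genotype were run for 28 single genes, of which 14 had p under 0.05 over 10 libraries (14400 orders; the smallest p these allow is 6.9e-05), where the limma fit had 11.6% of all tested genes under that p. These genes were picked with earlier results known. The permuted quantity is the slope within genotype, which is equivalent to the pooled correlation within genotype, so over 10 libraries it too mostly sets the low-scoring hearts against the rest. On ranks 5 of the 28 had p under 0.05; the rank p was 0.0761 for Ankrd1, 0.109 for Postn and 0.311 for Myh7. Over the 8 libraries 1 of the 28 had p under 0.05, Atp2a2 (576 orders, smallest p 0.0017), and on ranks 0 did, with 0.212 for Atp2a2. Chance gives about 1 in 20 under 0.05, so 1 of 28 is no excess. Ccnb1 and Myl7 were under the level needed for testing.

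**Figure D4:**
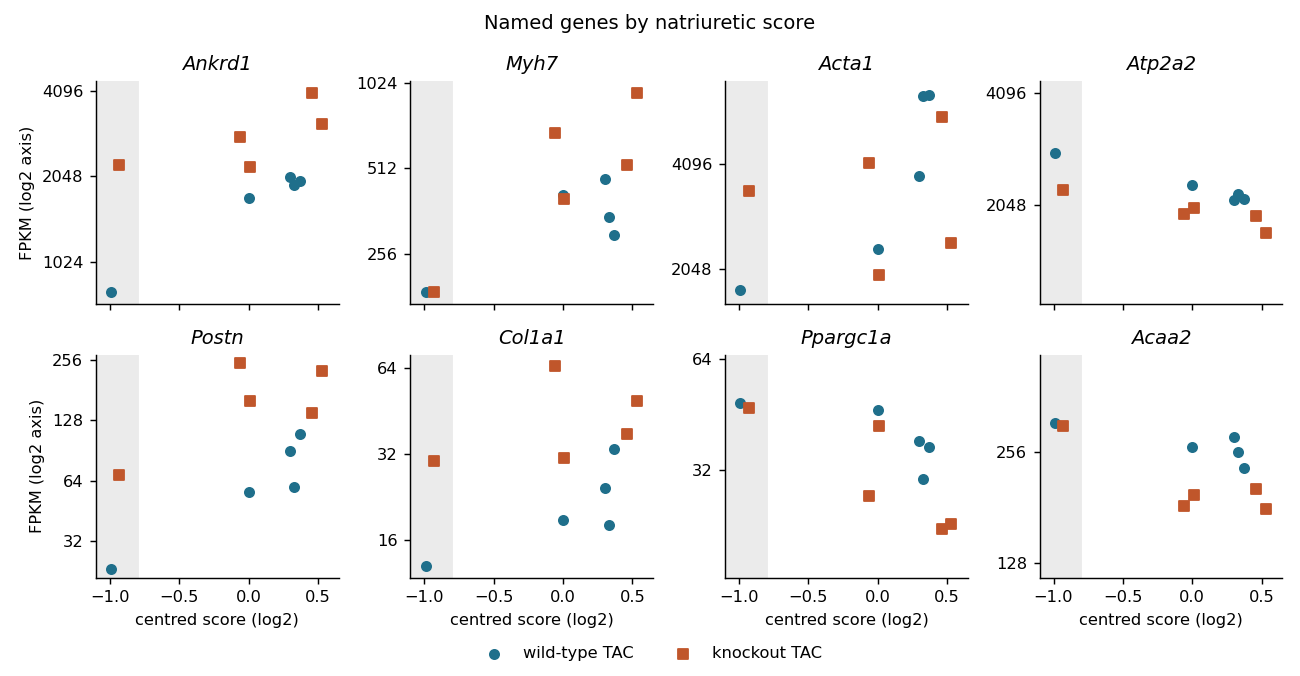
FPKM on a log2 axis of 8 named genes against the centred score in log2 units, with wild-type TAC as circles, knockout TAC as squares and grey bands over the low-scoring heart of each genotype. Atp2a2 (slope -0.26 over both 10 and 8 libraries) is highest in the low-scoring hearts and tends lower among the rest, though not at every step. Postn (slopes 1.15 and 0.20) separates the low-scoring hearts from the rest, and Acta1 has no common order in the 2 genotypes.

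Many matrix and activated fibroblast genes were lowest in the low-scoring hearts, with little order among the other 8. Of 40 matrix genes 36 were tested, 33 had a positive slope, and 20 were higher and 0 lower at an unadjusted p under 0.05 with 0 past the adjusted threshold. Their median slope was 0.31 over 10 libraries and 0.023 over 8, where 21 of 36 were positive, close to the 53.6% and 0.018 of all genes over those 8. Of 23 tested activated fibroblast and matricellular genes, 20 were positive, 12 were higher at an unadjusted p under 0.05 and 1 passed, Mfap5; the median was 0.48 over 10 libraries and 0.011 over 8. Of 10 resident fibroblast genes 7 were positive and 1 passed, Pi16. Their median slope was 0.10 over 10 libraries and 0.076 over 8, and their summed level was 642 to 843 FPKM in wild type (642 in the low-scoring heart) and 592 to 758 in knockout (621 in the low-scoring heart).

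Postn, periostin, a matricellular protein of activated fibroblasts, was at 90.2, 59.7, 110.1, 56.5 and 23.1 FPKM in wild type and 225.8, 68.2, 159.2, 248.0 and 139.0 in knockout. Its slope was 1.15 ± 0.23 over 10 libraries and 0.20 over 8. By exact permutation, 2-sided, Postn had p = 0.0169 over 10 and 0.833 over 8. Knockout replicate 4, whose score was below its group mean, had the highest Postn. Col1a1, a chain of type I collagen, was at 24.4, 18.1, 33.3, 18.8 and 13.1 FPKM in wild type and 48.9, 30.2, 31.0, 64.7 and 37.5 in knockout (slope 0.49 ± 0.20, 0.15 over the 8 libraries), and it too was highest in knockout replicate 4. Col3a1, of type III collagen, had the same slope of 0.49 ± 0.20, and in the 8 libraries 0.13.

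Bgn, the proteoglycan biglycan, was at 295.3, 238.7, 322.1, 222.5 and 173.0 FPKM in wild type and 581.6, 330.7, 434.7, 544.0 and 458.1 in knockout, lowest in both low-scoring hearts (slope 0.49 ± 0.10, 0.39 over the 8 libraries). Its adjusted p was 0.101 (limma, Benjamini-Hochberg). Ccn2, connective tissue growth factor, was at 117.6, 101.6, 118.1, 131.2 and 89.0 FPKM in wild type and 389.1, 85.5, 318.5, 298.2 and 198.5 in knockout (slope 0.72 ± 0.25 over 10 libraries and -0.26 over 8). Timp1, a metalloproteinase inhibitor, was at 7.42, 4.60, 11.6, 9.41 and 5.03 FPKM in wild type and 23.1, 7.35, 21.5, 20.8 and 22.5 in knockout, where 4 hearts were nearly level and the low-scoring one stood alone; its slope was 0.72 ± 0.22 over 10 libraries and 0.00885 over 8. Sparc, a collagen-binding matricellular protein, had a slope of 0.13 ± 0.09 (-0.0165 over the 8 libraries).

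TGF-beta genes were mixed: of 19 tested, 12 had a positive slope, 4 were higher and 0 lower at an unadjusted p under 0.05, and the median was 0.013 over 10 libraries and -0.018 over 8. Tgfb2, a TGF-beta ligand, was at 3.93, 3.63, 4.70, 4.14 and 2.46 FPKM in wild type and 9.39, 3.34, 5.29, 10.6 and 8.44 in knockout, lowest in both low-scoring hearts (slope 0.62 ± 0.16, 0.25 over the 8 libraries). Pmepa1, a TGF-beta target that restrains Smad signalling, had a slope of 0.27 ± 0.06 (0.21 over the 8). Of 20 BMP genes 9 had a positive slope, with 3 higher and 1 lower at an unadjusted p under 0.05 and a median of -0.010 over 10 libraries and -0.026 over 8. Fstl3, a follistatin-like binder of activins, was at 7.10, 10.7, 8.61, 6.10 and 4.64 FPKM in wild type and 12, 4.19, 11.6, 13.8 and 12.4 in knockout (slope 0.76 ± 0.16 over 10 libraries and 0.23 over 8). Kcp had a slope of -0.02 ± 0.10 (0.12 over the 8).

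Genes of fatty acid oxidation lay lower at higher scores. Of 30 tested, 28 had a negative slope and 14 were lower and 0 higher at an unadjusted p under 0.05, with 0 past the adjusted threshold; the median was -0.13 over 10 libraries and -0.033 over 8, where 16 were negative. Acaa2, the thiolase of the last step of beta oxidation, was at 280.6, 255.3, 231.7, 264.3 and 305.6 FPKM in wild type and 179.1, 300.3, 196.0, 182.1 and 203.1 in knockout, highest in both low-scoring hearts (slope -0.33 ± 0.08, -0.0479 over the 8 libraries). Its exact permutation p, 2-sided, was 0.0164 over 10 libraries and 0.790 over 8. Acacb, which makes the malonyl-CoA that restrains fatty acid entry into mitochondria, had a slope of -0.21 ± 0.06 (-0.0911 over the 8).

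Ppargc1a, the coactivator PGC-1 alpha that drives mitochondrial genes, was at 38.4, 30.2, 37.1, 46.6 and 48.4 FPKM in wild type and 23.0, 47.0, 42, 27.2 and 22.2 in knockout. Its slope was -0.53 ± 0.13 over 10 libraries and -1.03 over the 8, so that it was also lower at higher scores without the low-scoring hearts. The exact permutation p for Ppargc1a, 2-sided, was 0.00729 over 10 libraries and 0.0660 over 8. Pfkfb1, a bifunctional enzyme that sets fructose bisphosphate levels, was at 2.90, 2.29, 2.22, 2.61 and 3.68 FPKM in wild type and 2.02, 4.83, 1.997, 2.97 and 2.14 in knockout (slope -0.50 ± 0.10, with exact permutation p = 0.00604, 2-sided, and -0.35 over the 8 libraries). Rxra, a nuclear receptor partner of the PPARs, had a slope of -0.17 ± 0.05 (-0.14 over the 8).

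Respiratory chain genes turned with the choice of libraries, as the whole gene set did. Of 44 tested, 37 had a negative slope, against 57.6% of all tested genes, and the median was -0.070. At an unadjusted p under 0.05, 3 of the 44 were lower, against 6.25% of all tested genes. Over the 8 libraries 32 of 44 were positive, with a median of 0.049, against 53.6% positive and a median of 0.018 for all genes. The tricarboxylic acid cycle list behaved alike, with 14 of 15 negative, a median of -0.071 and 0.034 over the 8 libraries. Cox7a1, the heart and muscle subunit of cytochrome oxidase, was at 1008, 1041, 987.3, 991.7 and 1140 FPKM in wild type and 742.8, 1141, 872.1, 762.3 and 906.8 in knockout, with slopes of -0.23 ± 0.07 over 10 libraries and 0.02 over 8. Of 25 glucose use genes, 2 were higher and 4 lower at an unadjusted p under 0.05. Hk1, hexokinase 1, had a slope of 0.17 ± 0.06 (0.23 over the 8).

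The p53 route had a median slope of 0.029 (0.030 over the 8 libraries) across 23 tested genes, with 4 higher and 1 lower at an unadjusted p under 0.05. Cdkn1a, the cell cycle inhibitor p21, was at 23.3, 59.7, 24.2, 25.5 and 28.5 FPKM in wild type and 66.8, 26.05, 67.8, 59.3 and 49.2 in knockout (slope 0.45 ± 0.26, 0.0710 over the 8 libraries). In knockout the low-scoring heart had the lowest Cdkn1a, and in wild type the high value of replicate 2 had no counterpart in the score. Trp53, which encodes p53, had a slope of 0.04 ± 0.07 (0.11 over the 8). From the integrated stress response list, Gdf15, a stress-induced cytokine, was at 4.32, 2.81, 2.73, 2.05 and 2.25 FPKM in wild type and 14.4, 3.95, 14.3, 11.4 and 10.03 in knockout (slope 0.63 ± 0.20, 0.24 over the 8 libraries).

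Markers of other cells are given because their part in the results above was not tested; none of them outside the resident fibroblast list passed the adjusted threshold. All 10 tested smooth muscle and pericyte markers had a negative slope, 4 of them at an unadjusted p under 0.05 (median -0.21, and 0.020 over the 8 libraries). Their summed level was 214 to 278 FPKM in wild type and 199 to 265 in knockout, the low-scoring heart highest in each. Of 15 endothelial markers, 13 had a negative slope and 5 were lower at an unadjusted p under 0.05 (median -0.14, and -0.059 over the 8 libraries), and their sum was 1300 in the low-scoring wild-type heart, within a range of 1150 to 1370, and 1600 in the low-scoring knockout heart, the top of 1210 to 1600. Kdr, the main VEGF receptor of endothelium, had a slope of -0.26 ± 0.07 (-0.16 over the 8), Tie1, an endothelial receptor kinase, -0.24 ± 0.06 (0.0445 over the 8), and Notch3, a pericyte and smooth muscle receptor, -0.27 ± 0.08 (-0.13 over the 8). Macrophage markers summed to 345 to 526 FPKM in wild type, lowest in the low-scoring heart, and to 430 to 581 in knockout, highest in the low-scoring heart, with a median slope of 0.026 (0.051 over the 8 libraries) across 18 genes. Red blood cell markers summed to 1490 to 3700 and 2510 to 4140 FPKM, and their 5 slopes were negative over 10 libraries (median -0.22) and positive over 8 (median 0.66). The Y-linked Ddx3y was at 11.9 to 16.2 FPKM and Xist at most 0.0191 in all 10 libraries.

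**Figure D5:**
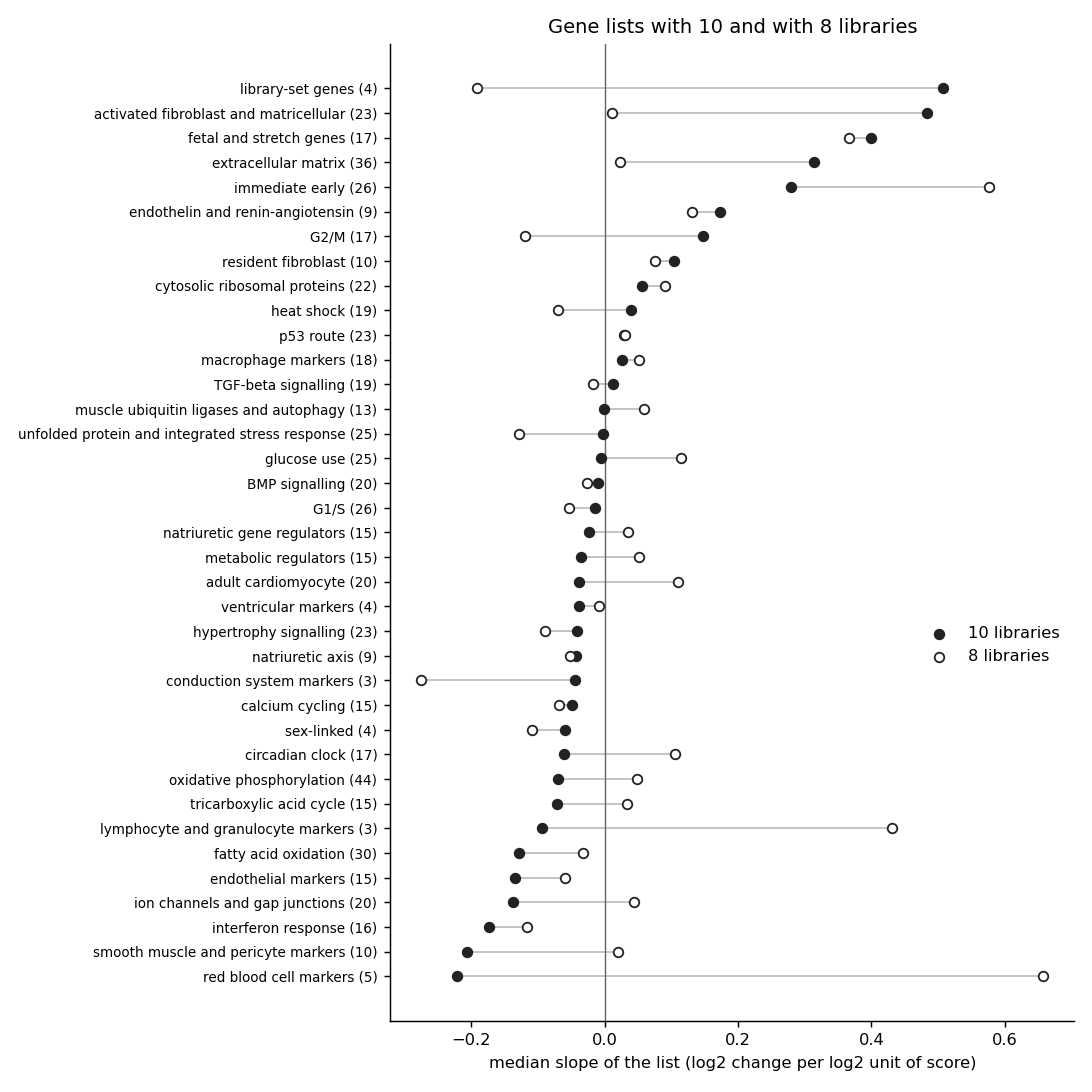
Median slope of the tested members of 37 gene lists, in log2 change per log2 unit of score, over 10 libraries (filled) and over the 8 libraries without the low-scoring heart of each genotype (open); the number of tested members follows each name. The fetal and stretch list stays near 0.40 and 0.37, the matrix list moves from 0.31 to 0.023, and the immediate early list moves from 0.28 to 0.58.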

How the data were processed

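Expression in 18 heart libraries came as 1 deposited table of 34714 genes. Its unit was inferred as FPKM from the values the authors deposited, since no label names it; mm10 is the build in the submitters' processing notes, and the sources used here do not give the aligner or counter. Tests ran on log2(FPKM + 1) of the 11600 genes, Nppa and Nppb apart, that reached 1 FPKM in 3 or more of the 10 TAC libraries. limma 3.58.1 in R 4.3.3, with trend and robust moderation, fitted genotype and the centred score (7 residual degrees of freedom), with Benjamini-Hochberg adjustment at 0.05 over all tested genes. The members, gene lists, 28 single genes and low-scoring pair were chosen with earlier results of these data known, so no p is adjusted over a list, and the planned pooled correlations were left out because the scores fell into separate sets. Named genes were a fixed set, up to 12 called genes in each direction with 1 sign throughout, and from each list up to 4 called members or the 2 with the smallest p; only some of these are described. All gene symbols matched RefSeq (GRCm38.p6). Exact permutations used all orders of the score within genotype. The pipeline was tested on simulated data. Alternatives were another pseudocount, 2 filters, median-ratio scaling, no moderation settings, each score gene alone, ranks, a replicate block, 8 libraries and each library left out.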

Additional observations from a re-analysis of the deposited data

Results flagged for a closer look

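In each genotype of 5 hearts, the library at one end was compared with the others for every described gene and list: a value stood apart where its gap to the nearest other library exceeded 0.71 of the group's whole range. This happened in 27 of 292 groups (9.25%), and 9 of the 27 fell on wild-type TAC replicate 5 and 9 on knockout TAC replicate 2. For unselected groups chance gives about 1 in 20; that rate does not apply here, since the score is among the groups and many of the genes were chosen for their relation to it, which favours those 2 libraries. All values in the next paragraphs are log2(FPKM + 1), and for lists the mean over their tested members.

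Wild-type replicate 5 had a natriuretic score of 9.07 against 10.06 to 10.43 in the other 4. By the same rule the score of knockout replicate 2 did not stand apart from its group. In wild-type replicate 5 several genes stood apart as well. Ankrd1 was at 9.64 in that library against 10.75 to 10.99, Serpina3n at 2.80 against 4.13 to 4.49, Serpine2 at 3.47 against 4.24 to 4.39 and Tbx20 at 3.40 against 3.74 to 3.81. Mmp15 stood high, at 4.83 against 4.42 to 4.52, as did Ckm, the muscle creatine kinase, at 10.78 against 10.57 to 10.62. Rps10 was at 4.96 against 5.68 to 5.91, and the mean of the 4 genes that split the libraries was 4.47 against 5.52 to 5.81.

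Knockout replicate 2 had Serpina3n at 4.27 against 5.76 to 5.92, Timp1 at 3.06 against 4.45 to 4.59, Fstl3 at 2.38 against 3.66 to 3.89 and Mthfd2, a mitochondrial folate enzyme, at 1.88 against 2.16 to 2.26. It stood high for Acaa2 (8.23 against 7.49 to 7.67), Gadd45a, a stress-induced growth arrest gene (3.41 against 2.67 to 2.77), Stat2, a transducer of interferon signals (3.27 against 2.47 to 2.63), Tbx3, a conduction system factor (2.29 against 1.49 to 1.66), and the ion channel list (3.71 against 3.44 to 3.47).

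The other values stood in hearts of the upper sets. Wild-type replicate 2 had Cdkn1a at 5.92 against 4.60 to 4.88, Ube2c, a mitotic ubiquitin-conjugating enzyme, at 1.18 against 1.82 to 2.08, and the G2/M list at 0.64 against 1.04 to 1.17. Wild-type replicate 3 had Kcp at 1.31 against 0.99 to 1.05 and the adult cardiomyocyte list at 10.42 against 10.46 to 10.48. Knockout replicate 1 had Egr2, an immediate early factor, at 3.59 against 0.76 to 1.44, and the BMP list at 3.42 against 3.26 to 3.30. Myl7 was at 0.28 in wild-type replicate 4 against 0 in the others, and at 0.49 in knockout replicate 4 against 0 to 0.14.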

How the results depend on the processing

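Against 5 higher and 5 lower genes, the numbers passing were 7 and 5 with a pseudocount of 0.1, 5 and 5 with 1 FPKM required in all 10 libraries, 0 and 0 with no filter on low values (19404 genes tested), 7 and 4 with median-ratio scaling, 2 and 0 without trend and robust moderation, 5 and 0 with the score from Nppa alone, 2 and 2 from Nppb alone, and 0 and 0 with ranks or in the 8 libraries. With each library left out in turn they ranged from 0 to 44 higher and from 0 to 10 lower, and the genes whose slopes differed between genotypes from 0 to 5. With a replicate block 2 and 0 passed; the numbers do not pair the libraries (correlations of same-numbered deviations 0.141, -0.237, 0.0247, 0.000721 and -0.0698, with 2 of 10 libraries closest to their own number). None of the 10 genes reversed in any setting, which was likely in advance because they were picked by their slopes in these libraries. Of 2062 single-gene values under the alternatives, 1883 kept direction and side of the threshold, 129 lost and 9 gained significance, and 41 reversed. These values cover 104 genes, and most that kept their side were of genes that had not passed in the main fit. Only the 10 genes that passed could lose significance, so all 129 losses were theirs. Of those 10, 2 still passed with the score from Nppa alone (Mfap5 and Pi16) and 1 with Nppb alone (Mylk4). The cause of each reversal was not tested.

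Over the 8 libraries the slopes that reversed were Cacna1g -0.42, Ccn2 -0.26, Ckm 0.13, Cox7a1 0.0204, Dld 0.0412, Gadd45a 0.21, Hba-a2 0.61, Hbb-bs 0.66, Hsf1 0.0884, Kcnj3 0.0659, Kcp 0.12, Map1lc3a 0.0586, Myl3 0.0258, Npr1 0.00326, Pde2a 0.23, Pold1 0.0689, Rps27rt -0.42, Sparc -0.0165, Tie1 0.0445, Uqcrc1 0.0583 and Wt1 -0.35. With Nppb alone Furin was 0.0415 and S100a8 0.0165. With ranks Hba-a2 was 0.00439, Hbb-bs 0.0166 and Kcp 0.0222. With the replicate block S100a8 was 0.36, Trp53 -0.0447, Ube2c -0.0597 and Wt1 -0.20. With each library left out, slopes that reversed ranged from -0.00719 to 0.21 for Cacna1g, -0.25 to 0.13 for Furin, -0.0862 to 0.0687 for Kcp, -0.18 to 0.48 for Npr3, -0.26 to 0.0316 for Pold1, -0.20 to 0.51 for Sbk2, -0.48 to 0.0168 for Stat2, -0.0306 to 0.39 for Trem2 and -0.0469 to 0.22 for Wt1.

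Depth is unknown, so the precision of low values cannot be given. The 2 low-scoring hearts carry most of the range of the score, and 1 of them is the library that stood apart from its group in the 4 genes that split the libraries.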

Other observations

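Immediate early genes, which switch on within minutes of a stimulus, had positive slopes in 24 of 26 tested members over 10 libraries (median 0.28, and 0.095 without knockout replicate 2, with 2 higher and 0 lower at an unadjusted p under 0.05) and in 24 of 26 over 8 (median 0.58, with 3 higher). Among all tested genes 42.4% and 53.6% of slopes were positive. The centred list mean was 0.673 in knockout replicate 1 but -0.093 in replicate 5, the next in score. In wild type, replicate 3 had the highest score and the lowest list mean, at -0.146. How far the slopes over 8 libraries rest on knockout replicate 1 was not tested. Egr2 was at 1.73, 2.95, 1.61, 2.57 and 0.736 FPKM in wild-type TAC replicates 1 to 5 and at 11.0, 0.696, 1.72, 1.504 and 0.957 in knockout TAC replicates 1 to 5. It was lowest in both low-scoring hearts, and 1 heart, knockout replicate 1, stood far above the rest. Cebpd, an early factor of the acute phase, was at 12.6, 15.0, 16.1, 12.8 and 13.9 FPKM in wild type and 33.4, 14.5, 33.1, 24.9 and 23.6 in knockout, with slopes of 0.04 in wild type and 0.65 in knockout; that difference did not pass the adjusted threshold in limma.

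Interferon response genes had negative slopes in 15 of 16 members (median -0.17, 0 at an unadjusted p under 0.05), and the median was 0.090 without knockout replicate 2. Rsad2, an antiviral interferon-induced gene, was at 4.94, 3.94, 4.83, 5.72 and 4.54 FPKM in wild type, with no order by score, and at 2.23, 8.49, 3.05, 4.12 and 5.19 in knockout. Of 32 G2/M genes only 17 reached the level needed for testing; 14 of these had a positive slope (median 0.15), the median was -0.036 without knockout replicate 2 and -0.12 over the 8 libraries, and 0 had an unadjusted p under 0.05. Over the 8 libraries the clock genes Bhlhe41 and Cry1 had slopes of 0.70 and -0.67, with unadjusted p of 0.00753 and 0.0052 and adjusted p of 1 for both (limma, Benjamini-Hochberg). The circadian list had 4 higher and 1 lower of 17 at an unadjusted p under 0.05 there, where all genes had 1.97% higher and 1.05% lower. The sources used here do not give the hour of collection.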
